A study of Mus musculus with 23 samples.

Results

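Zinc handling genes of the mouse ventral prostate are described here through 10 genes chosen by symbol: 5 Slc39 genes (Slc39a1, Slc39a7, Slc39a8, Slc39a10 and Slc39a14), 3 Slc30 genes (Slc30a1, Slc30a2 and Slc30a7) and the metallothioneins Mt1 and Mt2. They are 10 of the 20308 genes in the deposited table, and all 10 were among the 13412 genes with enough counts to be tested. The mice were C57BL/6J and received chow with 24 mg folic acid per kg (folic acid diet) or 4 mg per kg (control diet) from before birth onward. Ventral prostates were taken from intact mice at 7 weeks, or from mice castrated at 7 weeks, 3 d or 10 d after surgery. Poly-A RNA was sequenced in 23 libraries: 4 for each diet in the intact state, 4 on the folic acid diet and 3 on the control diet at 3 d, and 4 for each diet at 10 d. The labels name neither a sham operation nor an intact group of the later age, so after castration the parts of androgen loss, surgery and age cannot be told apart. They name no litter either, and since littermates share a diet, a litter's part in a diet difference cannot be told apart from the diet's. The labels list 4 mice per group; that each library is a separate mouse is not stated for single libraries, and where it is not, p-values measure the spread between libraries only.

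Zinc is moved across membranes by a pair of transporter families. Proteins of the Slc39 family (ZIP) carry zinc into the cytosol, from outside the cell or out of organelles, and proteins of the Slc30 family (ZnT) carry it out of the cytosol, across the cell membrane or into vesicles and the secretory pathway. Metallothioneins are small cysteine-rich proteins that bind zinc in the cytosol, and their genes, together with Slc30a1, are induced by zinc through the transcription factor MTF-1, which binds metal response elements. The prostate is known for its high content of zinc and citrate, which androgens maintain in rodents. This is said of the prostate as a whole, and the labels give no zinc content for the ventral lobe studied here.

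The start regions of Mt1, Mt2 and Slc30a1 are shown because these are the known zinc-induced genes of the group and, as given below, at 10 d on the control diet Slc30a1 was called higher and the metallothioneins were called lower. Each sequence runs 5′ to 3′ over 250 bases before and 30 bases from the start site of the RefSeq annotation (build GRCm38.p6, plus strand, chr8:94178839-94179118 for Mt1, chr8:94172368-94172647 for Mt2 and chr1:191906531-191906810 for Slc30a1). Capitals mark matches to TGCACNC or TGCGCNC, the core letters of a metal response element, searched on both strands.
Mt1: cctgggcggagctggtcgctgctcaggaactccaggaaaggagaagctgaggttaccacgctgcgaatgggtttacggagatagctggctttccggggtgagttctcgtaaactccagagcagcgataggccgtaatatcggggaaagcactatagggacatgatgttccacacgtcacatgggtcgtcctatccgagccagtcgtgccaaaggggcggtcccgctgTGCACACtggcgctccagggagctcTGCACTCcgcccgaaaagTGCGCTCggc
Mt2: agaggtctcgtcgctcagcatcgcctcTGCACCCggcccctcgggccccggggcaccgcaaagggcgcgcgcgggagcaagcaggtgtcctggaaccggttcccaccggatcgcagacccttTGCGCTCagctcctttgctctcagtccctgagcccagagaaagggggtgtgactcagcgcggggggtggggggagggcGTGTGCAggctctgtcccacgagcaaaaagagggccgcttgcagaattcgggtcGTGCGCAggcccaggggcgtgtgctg
Slc30a1: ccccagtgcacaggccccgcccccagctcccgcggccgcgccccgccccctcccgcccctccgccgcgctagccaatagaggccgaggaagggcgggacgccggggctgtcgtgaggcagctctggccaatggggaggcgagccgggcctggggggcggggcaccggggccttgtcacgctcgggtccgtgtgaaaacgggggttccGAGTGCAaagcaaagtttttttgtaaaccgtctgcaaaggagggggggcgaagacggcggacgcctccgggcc
Mt1 held 3 matches, all on the plus strand, of which the last 2 began at bases 3 and 21 from the RefSeq start used. Mt1 has 3 annotated transcripts, and whether these matches are transcribed depends on the start. Bases beyond the Mt1 window, which ends at 94179118, were not searched, so its count of matches holds for this start only. Mt2 held 4 matches, 2 on each strand, in a window that ends at 94172647, before the gene start at 94172664 in the GENCODE M21 annotation. Slc30a1 held 1, on the minus strand. Of 32851 RefSeq promoters of this length, 24.1% held at least 1 match, 1.73% at least 3 and 0.405% at least 4. Among the other members, Slc30a2 held 2 matches, a second start of Slc39a8 held 1, and none was found for Slc39a1, Slc39a7, Slc39a10 or Slc30a7, with 9 of the 10 members matched in the table. A match gives the letters only and does not show that a factor binds there.

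Library totals ranged from 6.38 M to 15.6 M counts. A secretory transcript, Sbp (spermine binding protein), took 49.3 to 59.8% of the counts in intact libraries, 26.2 to 38.8% at 3 d and 4.78 to 16.2% at 10 d, so the counts left for all other genes differed between states. Levels are therefore given in CPM, reads of a gene per M reads of its library, after TMM scaling, which sets the bulk of genes equal between libraries, and every change is relative to the median gene, which moved by at most 0.067 on the log2 scale in a castration comparison. Scaled by library totals alone, the median gene moved by a further 0.78 and 1.24 for the folic acid diet (3 d, 10 d) and 0.74 and 1.10 for the control diet. The share of called genes that were higher after castration was 38.4 to 46.4% with TMM scaling and 95.9 to 98.1% with library totals alone. Of 10 ventral prostate luminal markers 9 were matched in the table, each with counts in all 23 libraries, and the seminal vesicle markers summed to at most 1.76 CPM in any library. In whole tissue, fewer cells of a type and less RNA per cell cannot be told apart. The macrophage marker sum was 134 to 260 CPM at 3 d and 135 to 347 CPM at 10 d, against 48.0 to 101 CPM in intact prostates, and 1 control intact library (replicate 2) had a skeletal muscle sum of 4780 CPM, the highest of the 23.

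Ordered by CPM per kilobase of merged exon, the metallothioneins stood highest in intact prostates of the control diet, with 757 for Mt2 and 246 for Mt1. The importer Slc39a7 followed with 145, then Slc39a1 with 32.5 and Slc39a8 with 29.4, whose ranges over the libraries overlapped on this scale. Slc39a10 stood at 14.5, Slc30a7 at 8.72 and Slc30a1 at 7.76, Slc39a14 at 2.95 and Slc30a2 at 0.56. This order rests on merged exon lengths, which depend on the annotated transcripts. For Mt1 that length, 1246 bases, is the whole gene span, while Mt2 has 588 bases. The distance between Mt2 and Mt1 on this scale is therefore partly set by the annotation. Their count ratio averaged 1.45 in the same libraries. Slc39a14 has 10550 merged exon bases from 13 transcripts. At 10 d on the control diet, Slc39a8 had 43.0 CPM per kilobase against 24.0 for Slc39a1, and Slc30a1 had 11.98 against 4.95 for Slc30a7 and 4.44 for Slc39a10. On the folic acid diet at 10 d, Slc39a8 stood at 21.0 and Slc39a1 at 23.9, Slc30a1 at 11.7, Slc39a10 at 4.48 and Slc30a7 at 4.29. Between intact and castrated prostates, the plasma membrane exporter Slc30a1 thus moved above the importer Slc39a10 on both diets.

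Relative to the median gene, castration changed the zinc genes in both directions, and most called changes were decreases. Genes are called at a Benjamini-Hochberg adjusted p under 0.05 in edgeR's quasi-likelihood test, adjusted over all 13412 genes. At 3 d, 4 members were lower and 1 was higher on the folic acid diet, where 14.3% of all genes were called (8.27% lower, 6.07% higher). At 3 d on the control diet, 4 were lower and 1 was higher, against 9.98% of all genes called (6.15% lower, 3.83% higher). At 10 d, 4 were lower and none was higher on the folic acid diet, against 21.9% called (11.7% lower, 10.2% higher), and 6 were lower and 2 higher on the control diet, against 16.6% called (9.45% lower, 7.15% higher). Leaving out 1 library changed these counts to 3 to 5 at 3 d and 4 to 5 at 10 d on the folic acid diet, and to 3 to 4 and 4 to 7 on the control diet. At 10 d on the control diet, the count was 4 without control intact replicate 2 and 5 without control intact replicate 3 or control 10 d replicates 1 or 4. At 3 d it was 3 without control 3 d replicate 3 on the control diet, and 3 without folic acid intact replicates 1 or 2 or folic acid 3 d replicates 2, 3 or 4 on the folic acid diet. With library totals alone the balance turned, with 2 members higher and 0 lower at 3 d and 4 higher and 0 lower at 10 d on the folic acid diet, and 4 higher and 2 lower at 3 d and 3 higher and 1 lower at 10 d on the control diet. The median log2 change of the members was -0.66 and -0.67 at 3 d and 10 d on the folic acid diet, and -0.34 and -0.99 on the control diet, where the medians of all genes were 0.012, 0.067, -0.0058 and 0.051. Slc39a7, Slc39a10 and Slc30a7 were called lower in all 4 comparisons, as were 506 of 13412 genes (3.77%), and no member was called higher in all 4, as 248 genes (1.85%) were. Under library totals alone, Slc39a7 and Slc39a10 were still negative in all 4, while Slc30a7 turned positive. Castrated and intact libraries did not overlap for 7 members at 3 d and 5 at 10 d for the folic acid diet, where 17.6% and 20.5% of all genes did not overlap, and for 6 and 9 members for the control diet, against 25% and 24.9%. The 3 d and 10 d comparisons of a diet share their intact libraries, so the values at both times are not independent.

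**Figure D1:**
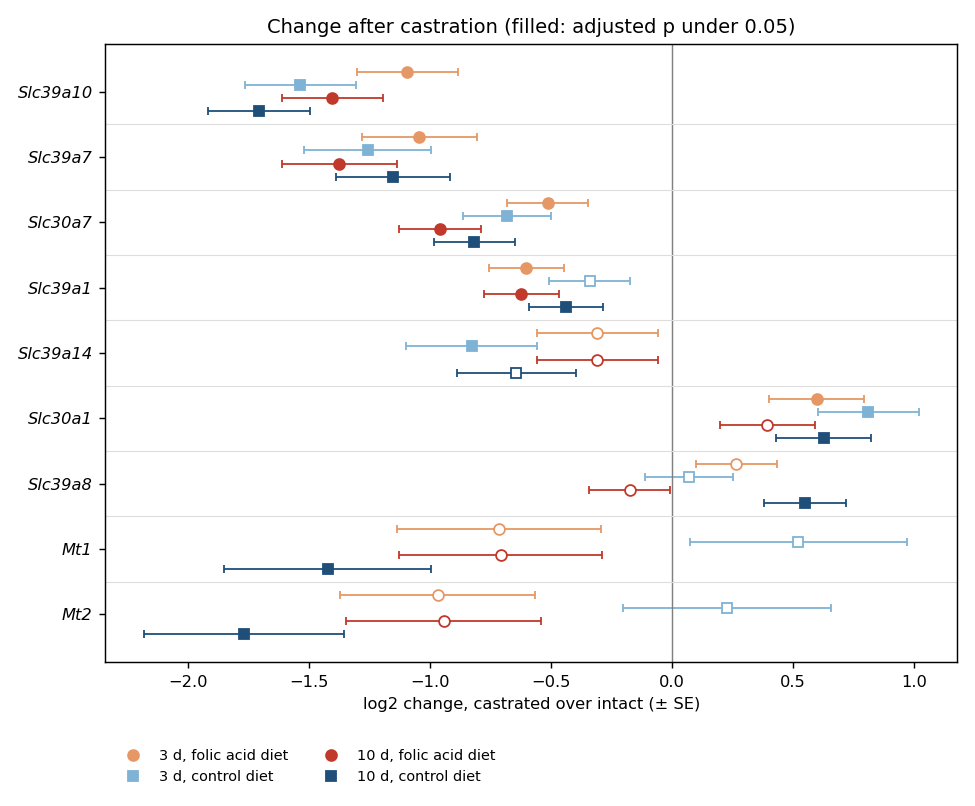
Log2 change after castration (castrated over intact, horizontal axis, ± SE) of 9 members in the 4 comparisons of time and diet, scaled with TMM; filled symbols have an edgeR adjusted p under 0.05. Slc39a10 and Slc39a7 lie left of 0 in all 4, Slc30a1 lies right of 0 in all 4, and Mt1 and Mt2 spread from -1.77 to 0.52; with library totals alone Slc30a7 lies right of 0 in all 4, as does Slc39a1.

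Slc39a10, a plasma membrane importer, had the largest log2 changes of the 8 transporters among the members, apart from the barely detected Slc30a2. Across the intact state, 3 d and 10 d, its libraries on the folic acid diet held 70.4, 49.6, 64.0 and 106 CPM, then 32.6, 22.9, 36.2 and 43.8 CPM, then 30.5, 30.4, 25.0 and 23.3 CPM. Control diet libraries held 90.7, 74.7, 90.0 and 98.0 CPM, then 26.0, 32.6 and 32.9 CPM, then 25.4, 19.9, 29.5 and 33.4 CPM. Every castrated library lay below every intact library on either diet. The log2 change was -1.09 ± 0.21 (SE, adjusted p = 0.000411) at 3 d and -1.40 ± 0.21 (7.9e-06) at 10 d on the folic acid diet, and -1.54 ± 0.23 (1.69e-05) and -1.71 ± 0.21 (2.72e-07) on the control diet. At 10 d this was 2.65-fold lower on the folic acid diet and 3.26-fold lower on the control diet. These calls held in the fits that left out each library in turn; with library totals alone the change was -0.34 (adjusted p = 0.29) and -0.20 (not called) on the folic acid diet, and -0.79 (0.0277) and -0.59 (0.0475) on the control diet.

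Slc39a7 (ZIP7), which releases zinc from the endoplasmic reticulum and Golgi into the cytosol, was the most abundant of these 8 transporters per kilobase and fell to a similar extent. On the folic acid diet it had 372, 575, 559.6 and 298 CPM in the intact state, 172, 270.0, 286 and 148 CPM at 3 d and 146, 131, 266 and 154 CPM at 10 d. The control diet libraries had 338, 402, 379.9 and 377 CPM, 174, 190.5 and 105 CPM, and 168, 161, 184 and 159.5 CPM in the same order of states. Castrated and intact libraries did not overlap on either diet. The log2 change was -1.04 ± 0.24 (adjusted p = 0.003) at 3 d and -1.37 ± 0.24 (9.7e-05) at 10 d on the folic acid diet, and -1.26 ± 0.26 (0.00153) and -1.15 ± 0.24 (0.000788) on the control diet. All 4 calls held without each library in turn. With library totals alone the change was -0.26 (0.246), -0.12 (0.564), -0.52 (0.0384) and -0.04 (0.843) in that order. In the annotation used here, an uncharacterised gene, Gm20427, overlaps Slc39a7 (chromosome 17, 34028269 to 34031682, minus strand), and reads shared by both could be assigned to either.

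Slc39a1 (ZIP1), a plasma membrane importer that in human prostate cells is known to take up zinc, averaged 57.4 ± 11.3 CPM at 3 d and 56.6 ± 6.36 CPM at 10 d, against 87.1 ± 11.6 CPM in intact prostates of the folic acid diet (SD, n = 4 each). For the control diet it averaged 60.7 ± 9.89 CPM at 3 d (n = 3) and 56.7 ± 1.09 CPM at 10 d, against 76.7 ± 4.88 CPM in intact prostates (n = 4). Its log2 change was -0.60 ± 0.15 (adjusted p = 0.0072) and -0.62 ± 0.15 (0.00349) for the folic acid diet and -0.34 ± 0.17 (0.221) and -0.44 ± 0.15 (0.0471) on the control diet. The call at 10 d on the control diet was lost without any 1 of its 8 libraries (adjusted p 0.0584 to 0.116) and with no filter (0.0697), and with library totals alone Slc39a1 was higher, with log2 changes of 0.19 (0.419) and 0.61 (0.00593) for the folic acid diet and 0.40 (0.113) and 0.67 (0.00339) for the control diet. Relative to the median gene of that scaling it was again lower, by -0.60, -0.70, -0.33 and -0.49.

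Slc39a14 (ZIP14), an importer of zinc, iron and manganese that inflammation induces in liver, was lower at 3 d on the control diet, with 18.02, 12.67 and 21.93 CPM against 36.7, 33.9, 25.9 and 28.0 CPM in intact prostates. Its log2 change was -0.83 ± 0.27 (adjusted p = 0.0474). That call was lost without control intact replicates 1, 2, 3 or 4 or control 3 d replicates 1 or 3 (adjusted p 0.0537 to 0.253), with median-ratio size factors (0.0532) and with no filter (0.0525), and of the fits leaving out 1 library it held only without control 3 d replicate 4. At 10 d on the control diet the change was -0.64 ± 0.25 (0.0728). On the folic acid diet, castrated libraries had 9.85 to 22.0 CPM at 3 d and 14.2 to 21.4 CPM at 10 d, against 15.95 to 24.13 CPM in intact libraries, and neither change passed the test (-0.31 ± 0.25 at both times, adjusted p = 0.474 and 0.408). The intact level itself was 21.0 ± 3.52 CPM on the folic acid diet and 31.1 ± 5.05 CPM on the control diet (n = 4 each), a log2 difference of -0.57 ± 0.25 that did not pass (adjusted p = 0.779). Scaled by library totals alone, the Slc39a14 changes were 0.50 (0.163) at 3 d and 0.95 (0.00589, called higher) at 10 d for the folic acid diet, and -0.08 (0.845) and 0.47 (0.154) for the control diet. Relative to the median gene of that scaling they were -0.29, -0.36, -0.82 and -0.68 in that order.

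**Figure D2:**
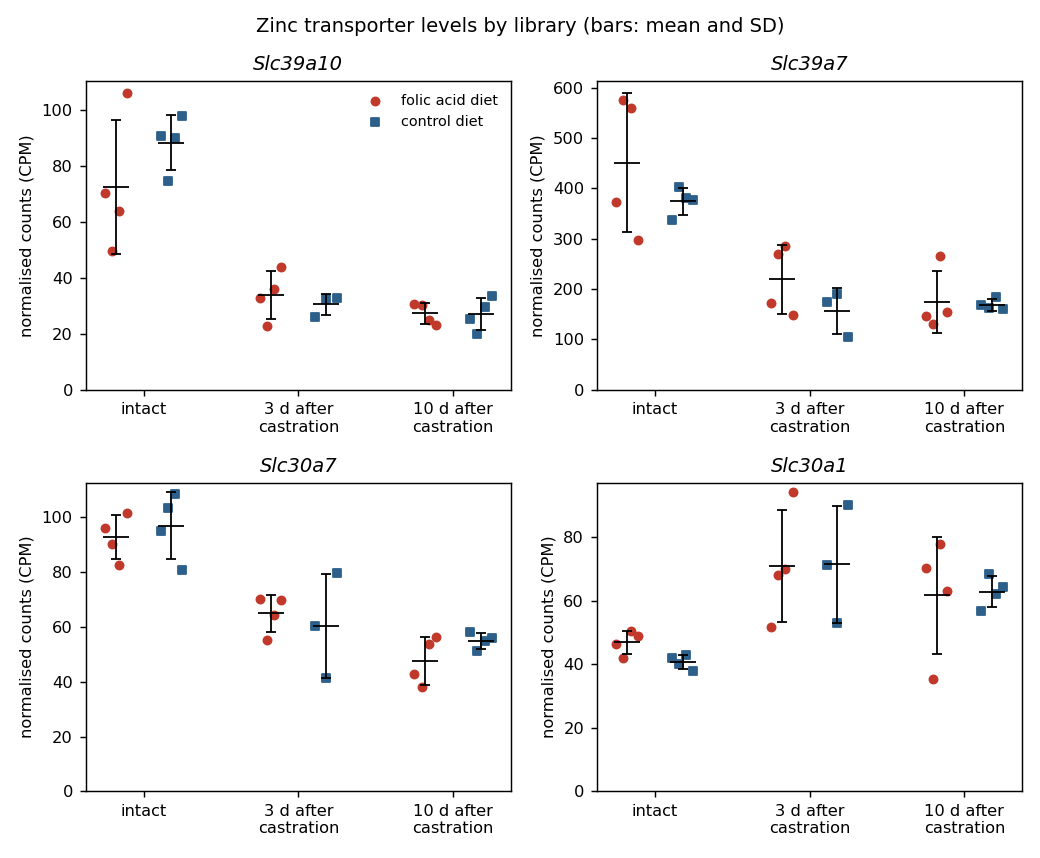
Normalised CPM (vertical axis, linear from 0) of Slc39a10, Slc39a7, Slc30a7 and Slc30a1 in each of the 23 libraries by state, folic acid diet left of control diet, with the mean and SD of each group as bars. Slc39a10 and Slc39a7 are lower in every castrated library than in every intact library of their diet, and Slc30a1 is higher in every castrated library except folic acid 10 d replicate 2, at 35.5 CPM; with library totals alone the Slc30a7 change is positive.

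Among the exporters, Slc30a7 (ZnT7), which loads zinc into the Golgi, had 70.2, 55.4, 64.4 and 69.8 CPM at 3 d and 42.8, 38.0, 53.7 and 56.4 CPM at 10 d on the folic acid diet, against 96.2, 90.4, 82.6 and 101 CPM in the intact state. The control diet libraries had 60.2, 41.5 and 79.6 CPM at 3 d and 58.1, 51.2, 54.9 and 55.9 CPM at 10 d, against 95.1, 103, 108 and 80.7 CPM. Castrated libraries lay below intact libraries of their diet throughout. The log2 change was -0.51 ± 0.17 (adjusted p = 0.036) and -0.96 ± 0.17 (7.96e-05) on the folic acid diet, and -0.68 ± 0.18 (0.0126) and -0.82 ± 0.17 (0.000579) on the control diet. Both 3 d calls rested on few libraries. The control diet call was lost without control 3 d replicate 3 (-0.44, adjusted p = 0.173), and the folic acid call without folic acid intact replicates 1, 2 or 4 or folic acid 3 d replicates 2, 3 or 4 (0.0502 to 0.115). Under library totals alone Slc30a7 was higher and not called, with changes of 0.27 and 0.26 for the folic acid diet and 0.07 and 0.29 for the control diet, which is -0.53, -1.05, -0.66 and -0.86 relative to the median gene of that scaling.

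Slc30a1 (ZnT1), the exporter of the plasma membrane and a known MTF-1 target, was the exporter that rose. On the folic acid diet it had 51.6, 68.1, 70.1 and 94.2 CPM at 3 d and 70.2, 35.5, 77.8 and 63.1 CPM at 10 d, against 46.3, 42.1, 50.6 and 48.8 CPM in the intact state. The control diet libraries had 71.4, 53.0 and 89.9 CPM at 3 d and 56.6, 68.5, 62.1 and 64.3 CPM at 10 d, against 41.8, 40.2, 42.9 and 37.8 CPM. All castrated libraries were above all intact libraries of their diet except folic acid 10 d replicate 2. The log2 change was 0.60 ± 0.20 (adjusted p = 0.037) at 3 d and 0.39 ± 0.20 (0.152) at 10 d on the folic acid diet, and 0.81 ± 0.21 (0.00925) and 0.63 ± 0.20 (0.0236) on the control diet. Without folic acid 10 d replicate 2, the 10 d change on that diet was 0.59 and called (0.0205). The other calls each depended on single libraries: at 3 d on the control diet it was lost without control 3 d replicate 4 (0.61, adjusted p = 0.11), at 10 d without control intact replicates 2 or 4 or control 10 d replicates 2 or 4 (0.0503 to 0.063), and at 3 d on the folic acid diet without any of folic acid intact replicates 1, 2 and 3 and folic acid 3 d replicates 2, 3 and 4 (0.0554 to 0.181). The direction was the same under every scaling, and with library totals alone the change was 1.39 to 1.73 over the 4 comparisons, all called. Relative to the median gene of that scaling it was 0.59 (3 d) and 0.29 (10 d) on the folic acid diet. On the control diet it was 0.83 and 0.58. An uncharacterised gene, 1700034H15Rik, overlaps Slc30a1 in the annotation (chromosome 1, 191906767 to 191913247, plus strand).

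The ratio of Slc30a1 to Slc39a10 counts within a library does not depend on scaling. It was 1.58 to 2.97 at 3 d and 1.17 to 3.11 at 10 d against 0.459 to 0.847 in the intact state on the folic acid diet, and 1.63 to 2.74 and 1.92 to 3.45 against 0.386 to 0.538 on the control diet. The pair was chosen after its values were seen, and the ratio is given without a test. Slc30a2 (ZnT2), a vesicular exporter known from mammary gland and pancreas, was barely detected. It had 0, 0, 0 and 3 counts at 3 d and 0, 12, 0 and 6 at 10 d, against 5, 1, 0 and 7 in intact libraries of the folic acid diet. The control diet libraries had 66, 0 and 0 counts at 3 d and 1, 6, 3 and 0 at 10 d, against 0, 18, 49 and 10. The counts above 10 came from 4 libraries of 3 groups, it was called in no comparison, and no fold is given.

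The metallothioneins were called lower at 10 d on the control diet and in no other castration comparison of the fit of all 23 libraries. At 3 d on the control diet they varied widely between libraries. Mt1 and Mt2 lie next to each other on chromosome 8 with 5513 bases between them (Mt2 at 94172664 to 94173568, Mt1 at 94179082 to 94180327, plus strand). Another gene, Gm45774, overlaps Mt2 in the annotation, and its part in the Mt2 counts was not tested. At 10 d on the control diet Mt1 had 90.3, 196, 69.2 and 101 CPM, against 289.9, 351, 346 and 239 CPM in intact prostates. Mt2 had 96.8, 233, 84.6 and 108 CPM, against 413, 529, 509.7 and 329.9 CPM. Castrated and intact libraries did not overlap for either gene. The log2 change was -1.42 ± 0.43 for Mt1 (adjusted p = 0.0274) and -1.77 ± 0.41 for Mt2 (0.00515). The Mt2 call held without each library in turn, while the Mt1 call was lost without control intact replicates 2 or 3 or control 10 d replicates 1, 3 or 4 (0.0613 to 0.081), or without the 4 libraries set apart in earlier work (0.0764). Scaled by library totals alone, the changes were -0.34 (0.44) and -0.69 (0.109).

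At 3 d on the control diet, 1 of 3 libraries decided the metallothionein level. Replicate 4 had 889 CPM of Mt1 and 1021 CPM of Mt2, the highest of all 23 libraries, beside 282 and 151 CPM of Mt1 and 366 and 178 CPM of Mt2 in replicates 1 and 3. The log2 change from the intact state was 0.52 ± 0.45 for Mt1 (adjusted p = 0.562) and 0.23 ± 0.43 for Mt2 (0.826), and without replicate 4 it was -0.50 (0.489) and -0.71 (0.279). In the marker sums, replicate 4 was the lowest of the 3 for macrophages (192 CPM), fibroblasts (1430 CPM) and the luminal list (263500 CPM, mostly Sbp). It had 1.24 CPM for neutrophils, the highest of the 3 and with 6 genes of that list at 0. Its smooth muscle sum was 803 CPM, beside 1739 CPM in replicate 1 and 1773 CPM in replicate 3. The sum of 10 oxidative stress response genes was 799 CPM in replicate 4, the highest of the 3, beside 517 and 637 CPM. The sum of 10 genes responsive to glucocorticoids was 289 to 314 CPM over these 3 libraries. The part of these in the metallothionein level was not tested. The difference between 10 d and 3 d on the control diet, where 0.35% of all genes were called, was -1.95 ± 0.45 for Mt1 (0.099) and -1.996 ± 0.43 for Mt2 (0.0565). It was called without control 3 d replicate 3 (adjusted p = 0.0154 for Mt1 and 0.00364 for Mt2) or control 10 d replicate 2 (0.0473 and 0.0188) and with DESeq2 (0.0037 and 0.00144), and was -0.92 (0.422) and -1.06 (0.314) without control 3 d replicate 4.

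On the folic acid diet Mt1 had 267, 289, 253 and 233 CPM at 3 d and 195, 169, 337 and 347 CPM at 10 d, against 397, 529.5, 494 and 290.0 CPM in intact prostates. Mt2 had 304, 305, 337 and 269 CPM at 3 d and 254, 203, 391 and 388 CPM at 10 d, against 619, 712, 602 and 442 CPM. Every castrated Mt2 library lay below every intact one on this diet, and the Mt1 ranges overlapped at 10 d but not at 3 d. The log2 changes of Mt1 were -0.72 ± 0.42 (adjusted p = 0.3) and -0.71 ± 0.42 (0.251), and those of Mt2 were -0.97 ± 0.40 (0.126) and -0.94 ± 0.40 (0.105), none of them called. A fit of only the groups compared called both at 3 d (0.017 for Mt1 and 0.00121 for Mt2) and Mt2 at 10 d (0.0118). With library totals alone the signs turned for Mt1 at both times (0.10 and 0.54) and for Mt2 at 10 d (0.30), and stayed negative for Mt2 at 3 d (-0.17).

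Mt1 and Mt2 moved together over the libraries, with a Pearson's r of log2 CPM of 0.98 over 23 libraries and 0.98 after the group means were removed, values that share depth and scaling within a library. Their ratio was not constant. The Mt2 to Mt1 count ratio averaged 1.17 ± 0.12 at 3 d and 1.195 ± 0.077 at 10 d against 1.41 ± 0.16 in intact prostates on the folic acid diet (SD, n = 4 each). For the control diet it averaged 1.21 ± 0.078 at 3 d (n = 3) and 1.137 ± 0.078 at 10 d, against 1.45 ± 0.057 in intact prostates (n = 4 each). All 7 castrated control libraries lay below the 4 intact ones (1.07 to 1.30 against 1.38 to 1.51), while the folic acid ranges overlapped. Two-sided exact permutation tests gave p = 0.0286 at 10 d on the control diet and p = 0.0571 in the other 3 castration comparisons. All were at 0.1 after adjustment over 7 comparisons. The smallest p that 4 against 4 libraries allow is 0.0286. At 3 d on the control diet, with 3 against 4 libraries that did not overlap, 0.0571 was already the smallest possible p. With so few libraries the adjusted values can decide little.

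**Figure D3:**
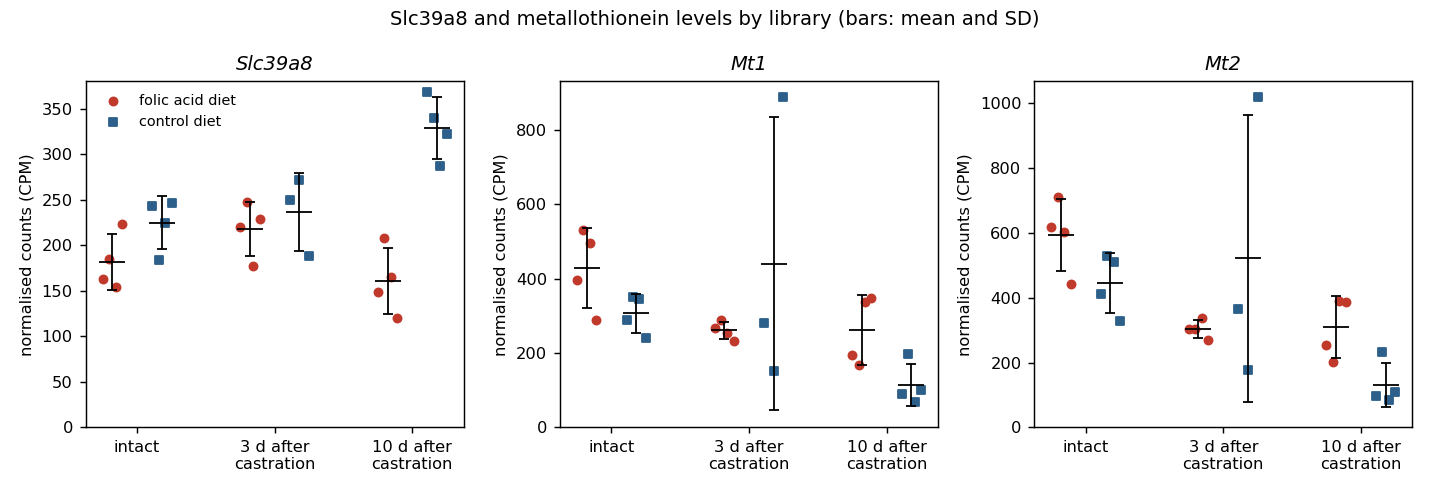
Normalised CPM (vertical axes, linear from 0) of Slc39a8, Mt1 and Mt2 in each of the 23 libraries by state, folic acid diet left of control diet, with the mean and SD of each group as bars. At 10 d, Slc39a8 is lower in all 4 folic acid libraries (121 to 208 CPM) than in all 4 control libraries (287 to 368 CPM), and at 3 d 1 control library stands far above the others for Mt1 and Mt2.

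Slc39a8 (ZIP8), a plasma membrane importer of zinc, manganese and iron, was the 1 member called for diet. At 10 d it had 149, 208, 165 and 121 CPM on the folic acid diet against 368, 340.4, 287 and 322 CPM on the control diet, and the groups did not overlap, as for 2.7% of all genes. The log2 difference was -1.03 ± 0.17 (adjusted p = 0.00227), 2.05-fold lower on the folic acid diet, in a comparison that called 16 of 13412 genes (0.119%, and 0.0969% lower). By p-value it ranked 5 of 13412. In the intact state it had 164, 185, 154 and 224 CPM on the folic acid diet against 244, 184, 225 and 247 CPM on the control diet (-0.31 ± 0.17, adjusted p = 0.803). At 3 d it had 219.9, 247, 177 and 229 CPM against 249, 272 and 188 CPM (-0.12 ± 0.18, 0.962), with overlapping groups in both states. Averaged over the 3 states the difference was -0.49 ± 0.10 (0.0109), among 47 genes called (0.35%, and 0.306% lower).

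The 10 d diet call for Slc39a8 held in the fits without each of the 8 libraries (log2 -1.18 to -0.92, adjusted p 0.000284 to 0.0372), with library totals alone (-1.01, 0.0466) and with DESeq2 (-1.002, 9.89e-06). It was lost when the fit held only these 2 groups (-1.02, 0.151). Such a fit has fewer libraries to estimate the spread from, and the part of this in the lost call was not tested. The mean over states was not called without control 3 d replicate 3 (-0.45, 0.0502). Whether the diet difference at 10 d was larger than in the intact state was tested as an interaction, which was -0.73 ± 0.24 with an unadjusted p of 0.00466 and an adjusted p of 0.869, and was not called. Within each diet, Slc39a8 was higher at 10 d than in the intact state on the control diet (0.55 ± 0.17, adjusted p = 0.0209) and not called on the folic acid diet (-0.18 ± 0.17, 0.498). The control diet call was lost without control intact replicates 2 or 3 or control 10 d replicate 1 (0.0506 to 0.0935). It was also lost without the same 4 libraries (0.053). With library totals alone the folic acid change was positive and called (1.07, 5.96e-05), but it was -0.25 relative to the median gene of that scaling.

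Beside these values, the macrophage marker sum at 10 d was 135 to 347 CPM on the folic acid diet and 142 to 236 CPM on the control diet, and the smooth muscle sum was 533 to 3075 CPM and 660 to 1713 CPM. The fibroblast sum was 895 to 1542 CPM and 1172 to 1882 CPM, the luminal sum 29775 to 126120 CPM and 42635 to 68705 CPM, and the basal epithelial sum 240 to 522 CPM and 264 to 383 CPM. The luminal list includes Sbp, which took 4.78 to 16.2% of the counts at 10 d, so its sum is mostly the level of that transcript. The groups overlapped for all of these lists at 10 d. In the intact state the fibroblast sum did not overlap, with 686 to 1542.5 CPM on the folic acid diet and 1597 to 2391 CPM on the control diet. At 3 d it did not overlap either (734 to 1144 CPM and 1430 to 2558.5 CPM), nor did the macrophage sum (134 to 177 CPM and 192 to 260 CPM). The part of any list in the Slc39a8 difference, at 10 d or over the mean of the 3 states, was not tested. Of the genes on these lists, Col6a3 (a collagen VI chain, fibroblast list) was called for diet, lower on the folic acid diet over the mean of the 3 states (-1.26 ± 0.23, adjusted p = 0.0129). The ratio of Slc39a8 to Slc39a10 counts, which no scaling changes, was 4.89 to 6.86 on the folic acid diet and 9.64 to 17.1 on the control diet at 10 d. Slc39a8 lies on chromosome 3 at 135825279 to 135888572 (plus strand, with 3 overlapping non-member genes in the annotation). Of the 9 tested genes within 1 Mb on either side, Slc39a8 included, it was the 1 called for diet at 10 d and for the mean over states. Its neighbours Manba, a lysosomal mannosidase, and Nfkb1, an NF-kappa B subunit, had log2 differences of -0.27 ± 0.18 and 0.22 ± 0.22 at 10 d.

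**Figure D4:**
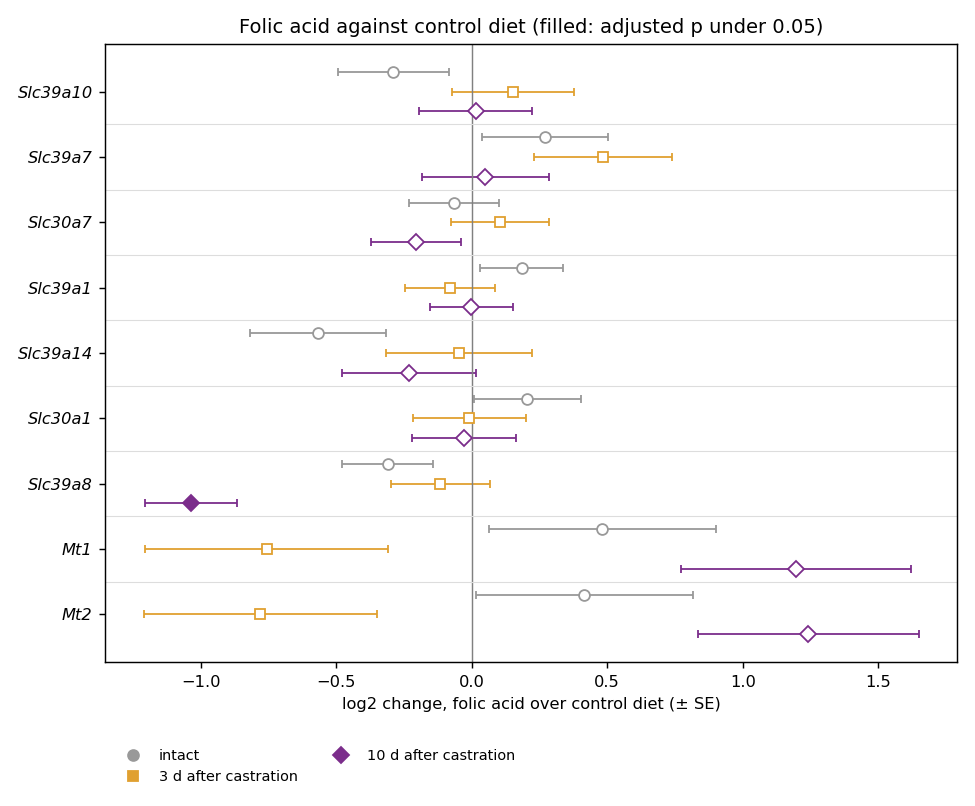
Log2 difference between diets (folic acid over control, horizontal axis, ± SE) of 9 members in the intact state, at 3 d and at 10 d after castration, scaled with TMM; filled symbols have an edgeR adjusted p under 0.05. Slc39a8 at 10 d (-1.03) is the 1 filled symbol, and the metallothioneins have the widest error bars.

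No other member was called for diet. In the intact state 0 of 10 members and 0.0522% of all genes were called, at 3 d 0 members and 0.0671%, and 1 member by unadjusted p under 0.05 in each of these states, with none called by DESeq2. The metallothioneins had the largest of the uncalled differences at 10 d. Mt1 was at 262 ± 93.0 CPM on the folic acid diet and 114 ± 56.3 CPM on the control diet (SD, n = 4 each), a log2 difference of 1.196 ± 0.42 (adjusted p = 0.748). Mt2 was at 309 ± 95.5 CPM and 131 ± 68.8 CPM (1.24 ± 0.41, 0.637). Their ranges overlapped through control 10 d replicate 2. At 3 d the differences were -0.76 ± 0.45 (0.85) and -0.78 ± 0.43 (0.845), and without control 3 d replicate 4 they were 0.27 and 0.16. For the transporters other than Slc39a8, Slc39a14 and Slc30a2, the differences lay between -0.29 and 0.48 over the 3 states. The diet by castration interaction called 0 members at 3 d, where 0 of 13412 genes were called (0%) by edgeR, 650 had an unadjusted p under 0.05 and DESeq2 called 3, and 0 members at 10 d, where 0.0149% were called. Between 10 d and 3 d on the folic acid diet 0 members were called, against 0.634% of all genes, 2 members had an unadjusted p under 0.05 and DESeq2 called 0.

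Some other genes of both transporter families were also called lower after castration, and none was called higher. Of the 9 other Slc39 genes 7 were tested, and the lower ones numbered 2 (3 d) and 2 (10 d) for the folic acid diet and 2 and 3 for the control diet. Of all genes, 8.27% and 11.7% were called lower for the folic acid diet and 6.15% and 9.45% for the control diet, and lists this short were not tested against them. Slc39a6, a plasma membrane importer first known as an oestrogen-induced gene in human breast cancer cells, was lower in all 4 comparisons, by -1.25 ± 0.15 (adjusted p = 7.01e-07) and -1.42 ± 0.15 (3.38e-08) on the folic acid diet and -1.15 ± 0.17 (1.19e-05) and -1.28 ± 0.15 (1.95e-07) on the control diet. Slc39a11 was lower in all 4 as well (-1.13, -1.33, -1.37 and -1.25 in that order), and both stayed negative with library totals alone. Slc39a9 was lower at 10 d on the control diet (-0.76 ± 0.17, 0.00169) and positive with library totals alone (0.34). The list's median changes were -0.15 and -0.30 on the folic acid diet and -0.34 and -0.76 on the control diet. Of the 7 other Slc30 genes 5 were tested. Slc30a5, which loads zinc into the early secretory pathway, was lower at 3 d on the folic acid diet (-0.45, 0.0348) and at both times on the control diet (-0.63, 0.00689 and -0.70, 0.000654), with the sign turned by library totals alone (0.35, 0.11 and 0.40). Slc30a4 was lower on the control diet at 10 d (-0.55, 0.00829, but 0.55 with library totals alone), and the low-count Slc30a10 on the folic acid diet at 10 d (-4.49 ± 1.61, 0.0443). The median changes of this list were -0.45 and -0.37 on the folic acid diet and -0.36 and -0.55 on the control diet.

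Mtf1, the zinc-sensing activator of metallothionein genes, was called in no comparison, with log2 changes of -0.0062 and 0.12 on the folic acid diet and 0.38 and 0.18 on the control diet after castration. Mtf2, a chromatin protein of the Polycomb group that shares the name only, was higher at 10 d on the folic acid diet (0.67 ± 0.22, 0.0263). The metallothioneins Mt3 and Mt4 and the zinc transporter Tmem163 had too few counts to test. Glucocorticoids are also known to induce Mt1 and Mt2 in mice. Of 10 genes responsive to these hormones, all tested, 3 were lower and 0 higher at 3 d and 5 lower and 1 higher at 10 d on the folic acid diet, and 4 and 5 were lower and 0 higher on the control diet, beside the same shares of all genes. The called decreases included Fkbp5, Sgk1, Tsc22d3 and Zbtb16, and Fkbp5 is known to be induced by androgens too. Fkbp5 was at -2.39 ± 0.21 (4.23e-10) and -2.78 ± 0.21 (1.53e-11) at 10 d on the folic acid and control diets. Tsc22d3 was the 1 gene of this list called for diet, lower on the folic acid diet at -1.02 ± 0.18 (0.00845) in the intact state and -1.04 ± 0.19 (0.015) at 3 d. Of 10 genes of the oxidative stress response, a state that can also induce metallothioneins, Osgin1 was lower at 3 d and 10 d on the folic acid diet (-1.32 and -0.91) and on the control diet at 10 d (-1.14), and no other was called in a castration comparison.

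Iron and copper handling genes, which include transporters of related metals, numbered 23 tested, of which 2 and 4 were called at 3 d and 10 d on the folic acid diet, where 14.3% and 21.9% of all genes were, and 3 and 3 on the control diet, where 9.98% and 16.6% were. Slc11a2 (DMT1), an importer of ferrous iron, was lower in all 4 comparisons (-1.08, -1.21, -0.75 and -1.24, the last 2 on the control diet), and with library totals alone its change lay between -0.26 and 0.06. Steap2, a metalloreductase abundant in prostate, was higher in all 4 (1.5, 1.78, 0.88 and 1.42), also with library totals alone. Slc40a1 (ferroportin), the iron exporter of macrophages and other cells, was higher at 10 d on the folic acid diet (4.13 ± 0.85, 0.00187) and the control diet (2.69 ± 0.82, 0.0308), beside the higher macrophage marker sum given above, whose part was not tested.

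The genes most like each member over the 23 libraries, by Pearson's r of log2 CPM among 8242 genes, are given as a description, since libraries share state, depth and scaling. Slc39a10 was most like Atp2a2, a calcium pump of the endoplasmic reticulum (r = 0.94), Serinc3 (0.94) and Sec61a1 (0.94), and Slc39a7 was most like Erp29 (0.95), Ubxn4 (0.94) and Lsr (0.93). Slc30a7 was most like Clptm1l (0.93), Slc26a4 (0.93) and Sec22b (0.92), and Slc39a1 like H13 (0.90). Sec61a1, Erp29, Ubxn4 and Sec22b act in the endoplasmic reticulum or in transport from it. Slc30a1 had r of 0.84 with Gpt2, 0.83 with Slc9a9 and 0.83 with Kifap3. Slc39a8 was less like any gene, at 0.76 for Cnot8, and so were Mt1 and Mt2, both closest to Asnsd1 (0.79 and 0.83). Slc39a14 was at 0.80 with Ube4a, and the barely detected Slc30a2 at 0.75 with Defb50. Among the members themselves, Slc39a10 and Slc30a7 were at 0.81, Slc39a8 and Mt2 at -0.65, and Slc39a10 and Slc30a1 at -0.62; after the group means were removed these were 0.08, -0.53 and 0.07. Spread within groups was small for Slc39a1 (SD of log2 CPM 0.20, percentile 6.42 of all genes) and Slc30a7 (0.23, percentile 13.2), and larger than the median gene's 0.41 for Mt1 (0.60, percentile 66.1) and Mt2 (0.58, percentile 65.1).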

How the data were processed

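Ventral prostate RNA of 23 libraries in 6 groups was analysed. The authors deposited expected counts per gene symbol, the read numbers that RSEM estimates, not scaled between libraries; per the submitters' processing notes the tools were RSEM 1.2.3, Bowtie 0.12.9 and bcl2fastq 2.17.1.14 and the build mm10. No source used here gives annotation, strand or read length, and without strand a gene and an antisense partner cannot be told apart. The table had 1 column that no label describes, which was left out. Values that were not whole (19.5%) were rounded. Genes were filtered with filterByExpr (minimum count 10, minimum total 15), scaled with TMM factors (0.553 to 1.70) and fitted in 1 edgeR 4.0.16 quasi-likelihood model (robust, 1 mean per group, no covariate) in R 4.3.3 (limma 3.58.1), with a biological coefficient of variation of 0.364. All p-values are two-sided and adjusted over 13412 genes. The 12 comparisons were castration at 3 d and 10 d and 10 d against 3 d on each diet, diet in each state and for their mean, and the interaction of diet with castration at 3 d and at 10 d. Alternatives were median-ratio size factors, library totals alone, no filter, DESeq2 1.42.0, only the groups compared, a replicate block, each library left out, and 4 libraries left out that earlier work had set apart (folic acid intact replicate 3, folic acid 10 d replicates 2 and 3, control intact replicate 2). Replicate numbers did not pair the libraries: over 55 same-numbered pairs, the correlation of deviations from the group means ran from -0.149 to 0.237, with a median of 0.013.

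The members, lists and comparisons were chosen with earlier results of these data known. Named genes are the 10 members, tested genes of the other Slc39, Slc30 and metallothionein lists, up to 4 called genes per comparison with the smallest p of the iron and copper, glucocorticoid and oxidative stress lists, and the 3 genes most like a member whose own mean log2 CPM is 3 or more (prior count 2). Neighbours of Slc39a8 and marker sums were added as context. Gene positions and merged exon lengths are from GENCODE M21 (GRCm38), and the fit was tested on simulated data. In that annotation other genes also overlap Slc39a10 (Gm28151 and Gm37393) and Slc30a7 (Gm43106, Gm6649 and Mir669n).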

Additional observations from a re-analysis of the deposited data

Results flagged for a closer look

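Of 50 groups of 4 libraries tested, 10 genes in 5 groups, 3 had a library whose gap to its nearest neighbour was large for the range of its group, and chance alone marks about 1 in 20 groups. Mt2 was at 232.9 CPM in control 10 d replicate 2, while the other 3 libraries of the group lay between 84.6 and 108 CPM; the same library had the highest Mt1 level of the group, 196 CPM. Slc39a1 was at 40.38 CPM in folic acid 3 d replicate 3, below 62.8 to 63.3 CPM in the other 3. Slc30a2 was at 0.2805 CPM in folic acid 3 d replicate 4, which is 3 counts, where the other 3 libraries had 0.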

How the results depend on the processing

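With library totals alone, the log2 changes that turned positive and were called under either scaling were those of Slc30a7 (folic acid diet at 3 d and 10 d 0.27 and 0.26, control diet 0.068 and 0.29), Slc39a1 (folic acid diet 0.19 and 0.61, control diet at 10 d 0.67), and Slc39a8 and Slc39a14 (1.07 and 0.95 at 10 d on the folic acid diet). Relative to the median gene of that scaling, all of these changes were negative. Changes called under neither scaling turned positive for Slc39a1 (control diet at 3 d, 0.40), Slc39a14 (folic acid diet at 3 d 0.50, control diet at 10 d 0.47), Mt1 (folic acid diet, 0.10 and 0.54), Mt2 (folic acid diet at 10 d, 0.30) and the barely detected Slc30a2. The genes called were then 6592 and 9870 (folic acid diet, 3 d and 10 d) and 5696 and 9040 (control diet), with 1974 and 1275 between 10 d and 3 d, and the members called were 4 at 10 d on the control diet, 2 at 3 d on the folic acid diet and 3 between 10 d and 3 d on the control diet. DESeq2 called 261 and 152 genes between 10 d and 3 d on the folic acid and control diets, 23, 27, 44 and 81 for diet in the intact state, at 3 d, at 10 d and over the mean, and 3 and 9 for the interactions, with 2 members between 10 d and 3 d on the control diet. A fit of only the groups compared, which has fewer samples, called 20 genes between 10 d and 3 d on the folic acid diet, 15 and 4 for diet at 3 d and 10 d, 1 for the 3 d interaction, and 0 members for diet at 10 d. With the replicate block, 11 genes were called for diet in the intact state and 1 for the 10 d interaction, and no member call changed except Slc39a14 at 3 d on the control diet (adjusted p = 0.0544). Leaving out the 4 libraries called 1327 genes at 10 d on the folic acid diet, 42 between 10 d and 3 d on it, and 4 and 22 for diet in the intact state and at 3 d; without the filter the 3 d interaction called 1. The cause of these shifts was not tested.

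With 1 library left out at a time, the genes called were 1272 to 2143 and 2274 to 3054 for castration (folic acid diet, 3 d and 10 d), 906 to 1135 and 1744 to 1970 (control diet), 43 to 167 and 28 to 52 between 10 d and 3 d, 3 to 48, 2 to 10, 9 to 24 and 37 to 64 for diet, and 0 to 2 and 1 to 3 for the interactions. The members called were 3 to 5 and 4 to 5 (folic acid diet), 3 to 4 and 4 to 7 (control diet), 0 to 2 between 10 d and 3 d on the control diet, 1 for diet at 10 d and 0 to 1 for the mean. Of 1230 log2 changes of members from these fits, 0 changed sign where either fit called them. Depth limits Slc30a2, with at most 66 counts, and for 2 groups the standard error of a gene's log2 change had a median of 0.285 to 0.312.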
